A study of Danio rerio with 68 samples.

Results

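Granzymes and perforins are the proteins with which cytotoxic lymphocytes kill other cells. Perforin is a pore-forming protein related to the late complement components, and granzymes are serine proteases that enter the target cell and cut proteins whose loss leads to its death. Both are stored in secretory granules of cytotoxic T cells and natural killer cells and are released together toward a target. In teleost fish both families hold many copies, and what each copy does is known far less well than for the mammalian genes. The rows described here are those of the gene table whose symbol, with case ignored, starts with gzm or prf1. There were 40 of them among 32677 rows, of which 31 were granzymes and 9 were perforins. Single rows were chosen by symbol alone, while the family was proposed after its measured levels and changes across tissue, age, rotenone and time were known, so those levels and changes are given as a description of the members.

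Brain, liver and skin came from male zebrafish of 12 or 36 months of age. Controls of both ages were kept with the solvent DMSO, and further fish of 36 months were kept in tank water with 3.75 nM rotenone, a plant compound that blocks mitochondrial complex I. Each arm was sampled after 3 or 8 weeks, and no 12-month fish received rotenone. The labels used here do not give the strain. In brain and in skin there were 3 controls of 12 months at 3 weeks and 3 at 8 weeks, 3 and 4 controls of 36 months, and 5 and 6 rotenone libraries. In liver the same groups held 2 and 3, 2 and 3, and 4 and 6 libraries. That gave 24 brain, 20 liver and 24 skin libraries.

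The 29 rows named GZMM (1 of 29) to GZMM (29 of 29) are copies that the authors' annotation groups under GZMM, a mammalian granzyme that cuts after methionine and similar residues, and the other granzyme rows are gzma and gzmk, which in mammals cut after basic residues. By Ensembl identifier, the row named gzma now carries the symbol gzmk and the row named gzmk now carries gzma, and both keep the name of the file here. GZMM (3 of 29), GZMM (6 of 29), GZMM (1 of 29) and GZMM (4 of 29) are now gzm3, gzm3.2, gzm3.3 and gzm3.4. They lie side by side in the RefSeq gene order of the GRCz12tu assembly with 0 genes between them, and they are called the gzm3 rows below. Of the 25 rows that could be placed in that order, 13 GZMM copies with clone-based names lie in 1 other array. The perforin rows are PRF1 (1 of 8), now prf1.1, PRF1 (2 of 8), now prf1.9, the numbered genes prf1.2, prf1.3, prf1.5, prf1.6, prf1.7 and prf1.8, and the pseudogene prf1.9p. Because the copies resemble each other and some are neighbours, counting could have split reads among them, and values of single copies are uncertain to that extent. The sources used here do not say whether counting used strand.

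Total counts per library ran from 24.1 to 54.9 M in brain (median 29.1 M), from 28.7 to 47.3 M in liver (median 36.0 M) and from 24.3 to 34.4 M in skin (median 28.8 M). Levels are given as CPM (counts scaled to a library's total), and as the authors' RPKM (reads scaled to gene length and depth) wherever 2 genes are compared. Tissue markers stood high in the tissue of the label, with brain markers at 10300 to 22100 summed CPM in brain, liver markers at 41100 to 191000 in liver and skin markers at 39500 to 99000 in skin. Some libraries also held transcripts of other tissues. In liver, intestine markers ran from 1050 to 13400 summed CPM, the highest in replicate 3 of the 36-month controls of 8 weeks. In skin, skeletal muscle markers ran from 3430 to 76800 and liver markers from 6.68 to 14400. In brain, skin markers ran from 223 to 1610 and liver markers reached 2740, against medians of 281 and 335. In whole tissue, more cells of a type and more RNA per cell cannot be told apart.

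Skin held by far the highest levels of both families. Summed granzyme levels were 51.9 ± 28.0 CPM in skin (SD, n = 24), 15.8 ± 9.03 in brain (n = 24) and 5.82 ± 4.87 in liver (n = 20). Summed perforin levels were 181 ± 72.1 CPM in skin, 5.39 ± 1.09 in brain and 2.49 ± 1.52 in liver. Both sums were higher in skin than in the brain library of the same number in 24 of 24 cases, and higher than in the liver library of the same number in 20 of 20. Brain exceeded liver in 19 of 20 cases for granzymes and in 18 of 20 for perforins. That order depended on the scaling: with library sizes corrected by TMM (trimmed mean of M values), granzymes stood at 10.8 CPM in both tissues, brain exceeded liver in 12 of 20 cases, and perforins were at 3.61 in brain and 4.66 in liver. The same correction left skin at 44.5 CPM of granzymes and 154 CPM of perforins, above the other tissues in every pair.

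**Figure D1:**
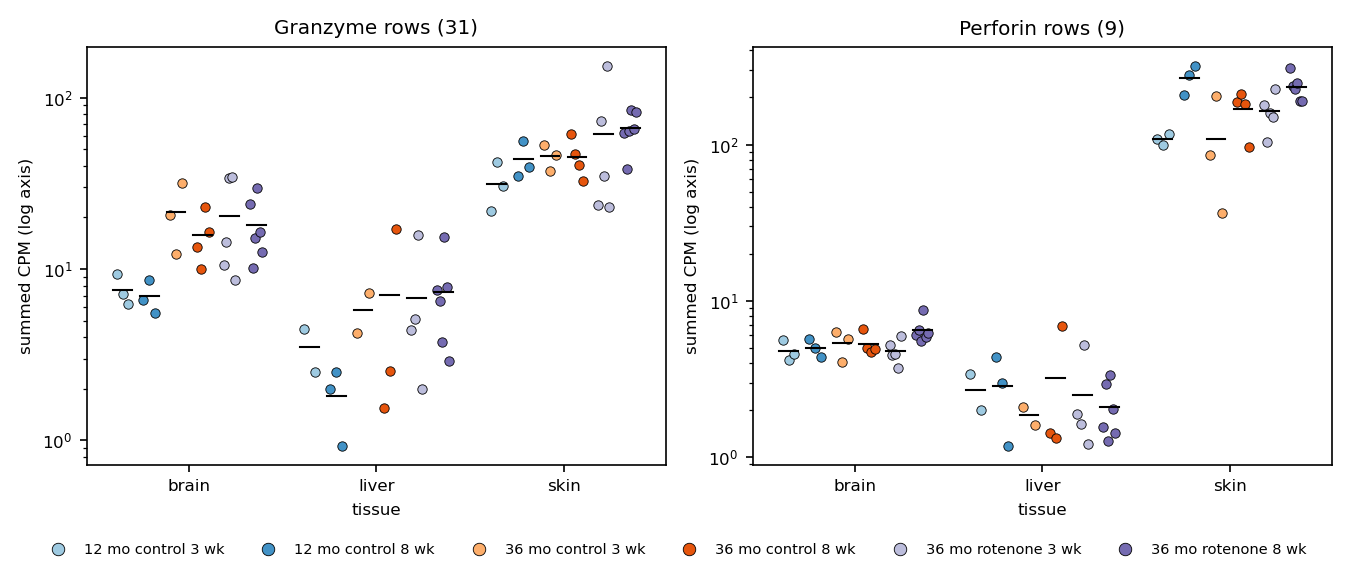
Summed CPM of the 31 granzyme rows (left) and the 9 perforin rows (right) in each library, on a log axis, by tissue, with points coloured by age, treatment and time and a line at each group's mean. Perforin sums in skin lie between 36.5 and 318 CPM, above every brain (up to 8.78) and liver (up to 6.88) library.

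A single perforin gene made most of this difference. prf1.6 stood at a median of 176 CPM in skin, with a lowest library of 28.7 and a highest of 302. In brain its mean was 0.524 CPM (0.0724 to 2.98) and in liver 0.469 CPM (0 to 3.15), so no brain or liver library came near any skin library. Per length it made up 84.8% ± 7.75 of the perforin RPKM in skin, against 4.91% ± 4.33 in brain and 11.1% ± 14.0 in liver. Without prf1.6 the perforin sums were 13.5 ± 4.52 CPM in skin, 4.87 ± 0.727 in brain and 2.02 ± 1.32 in liver, which left skin highest.

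The granzymes of skin were also a different mixture. The gzm3 rows made up 10.6% ± 5.12 of the granzyme RPKM in skin, against 51.6% ± 13.5 in brain and 49.0% ± 10.4 in liver. The other 25 GZMM copies took 83.4% ± 7.43 in skin, 39.5% ± 18 in brain and 25.5% ± 13.2 in liver. gzma and gzmk together took 25.5% ± 9.57 in liver, 8.91% ± 5.33 in brain and 6.0% ± 3.66 in skin. These shares varied widely between libraries, and for the other GZMM copies in brain they ran from 7.08% to 71.7%. They also pool the ages. In 12-month control brains the mean gzm3 sums were 2.78 and 2.77 CPM at 3 and 8 weeks, below the other GZMM copies at 4.49 and 3.9. In 36-month control brains the gzm3 sums were above them, at 13.7 and 7.97 against 4.6 and 6.25 CPM.

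Ranked by mean RPKM, the leading rows in skin were prf1.6 at 51.0 ± 21.4, GZMM (29 of 29) at 18.6 ± 22.9, GZMM (20 of 29) at 12.4 ± 7.23, GZMM (25 of 29) at 4.69 ± 3.96, PRF1 (1 of 8) at 3.26 ± 1.51 and prf1.5 at 2.96 ± 1.92. The range of prf1.6, 8.7 to 91.8 RPKM, overlapped that of GZMM (29 of 29), 3.66 to 117, and each following neighbour in the order overlapped the one before. In brain the gzm3 rows led, with GZMM (6 of 29) at 3.3 ± 2.96, GZMM (1 of 29) at 3.24 ± 2.71, GZMM (4 of 29) at 2.7 ± 2.15 and GZMM (3 of 29) at 1.84 ± 1.86, followed by prf1.5 at 1.61 ± 0.339 and GZMM (20 of 29) at 1.42 ± 1.16. The standard deviations of these 6 brain rows exceed the steps between neighbours. The brain order pools both ages, and as a sum the gzm3 rows stood lower in the younger than in the older controls. In liver gzma led at 1.22 ± 1.23 RPKM, ahead of GZMM (1 of 29) at 1.01 ± 0.969, GZMM (6 of 29) at 0.993 ± 0.887, GZMM (4 of 29) at 0.729 ± 0.599, gzmk at 0.722 ± 0.658 and GZMM (3 of 29) at 0.63 ± 0.484. There too the spread was larger than the steps.

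**Figure D2:**
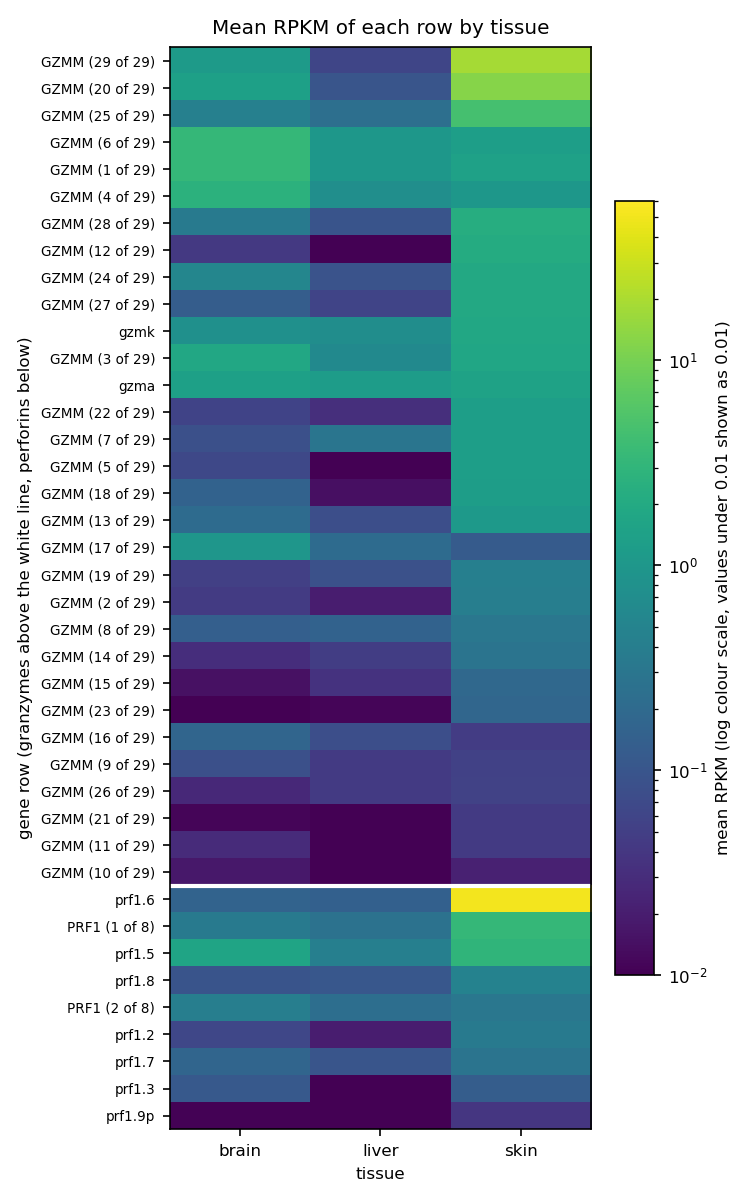
Mean RPKM of each of the 40 rows in brain, liver and skin on a log colour scale, with granzymes above the white line and perforins below it. The brightest cells are prf1.6 (51.0 RPKM), GZMM (29 of 29) (18.6) and GZMM (20 of 29) (12.4), all in skin.

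Of the 40 rows, 32 had their highest mean CPM in skin, 8 in brain and 0 in liver, and 4 of the 8 in brain were under 1 CPM in every tissue. This tally also depended on the scaling, since with TMM 31 rows were highest in skin, 4 in brain and 5 in liver, among them gzma (2.02 CPM in liver, 1.14 in skin and 0.853 in brain) and PRF1 (2 of 8) (0.763, 0.484 and 0.491). GZMM (5 of 29) and prf1.3 had no count in any of the 20 liver libraries, which allows a mean level of up to 0.00408 CPM (3 counts over the tissue, counting error only). GZMM (5 of 29) stood at 1.01 ± 0.592 CPM in skin and 0.0513 ± 0.0405 in brain. GZMM (23 of 29) was counted in 8 of 24 skin libraries and reached 2.97 CPM in 1 of them, a rotenone library of 3 weeks.

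A fit of all 68 libraries compared the tissues with edgeR's quasi-likelihood test. A row was called at a Benjamini-Hochberg adjusted p under 0.05 over all 25628 genes tested, and 32 of the 40 rows passed the filter on low counts. That filter used the groups, so a row could pass through skin alone. In the fits of single tissues 30 rows passed in skin, 19 in brain and 19 in liver. The counts and medians in favour of skin hold rows that are scarce in brain or liver, and were not taken without them. Against brain, 26 of the 32 were higher in skin, where 43.5% of all genes were higher, and 3 were lower, where 39.5% of all genes were lower. The median log2 fold change of the 32 was 2.96, beside 0.08 over all genes. Against liver, 23 were higher in skin (43.5% of all genes) and 2 were lower (31.6%), with a median of 2.44 beside 0.25 over all genes. These counts were the same with RLE (relative log expression) size factors, which moved the median of all genes between skin and brain by -0.11 and between brain and liver by 0.16 on the log2 scale.

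prf1.6 was higher in skin than in brain by 8.94 ± 0.40 on the log2 scale (± is the standard error beside a log2 fold change, edgeR adjusted p = 1.27e-27) and higher than in liver by 7.62 ± 0.45. PRF1 (1 of 8) was higher in skin by 3.72 ± 0.24 against brain and by 2.69 ± 0.26 against liver. Among the granzymes, GZMM (29 of 29) was higher by 4.14 ± 0.35 and 6.92 ± 0.53, and GZMM (20 of 29) by 3.53 ± 0.31 and 5.93 ± 0.44. The rows lower in skin than in brain were GZMM (17 of 29) at -2.57 ± 0.46, and the gzm3 rows GZMM (4 of 29) at -0.83 ± 0.25 and GZMM (6 of 29) at -0.78 ± 0.30. GZMM (17 of 29) and PRF1 (2 of 8) were lower in skin than in liver, by -1.33 ± 0.59 and -0.72 ± 0.26. By mean CPM without TMM, PRF1 (2 of 8) was instead higher in skin, at 0.571 against 0.413 CPM in liver. Of the 26 rows called higher in skin than in brain, GZMM (3 of 29) was the 1 whose mean CPM ran the other way (1.37 in skin and 1.48 in brain). Between brain and liver 8 rows were higher in brain (43.2% of all genes) and 8 were higher in liver (39.0%), the latter including gzma, whose log2 difference between brain and liver was -1.77 ± 0.40, gzmk at -1.48 ± 0.40 and PRF1 (1 of 8) at -1.03 ± 0.25. These directions rest on the scaling: by mean CPM without TMM, only 3 of those 8 rows were higher in liver, and gzma (1.24 CPM in brain and 1.08 in liver), gzmk (0.659 and 0.607), PRF1 (1 of 8) (0.639 and 0.468), PRF1 (2 of 8) (0.738 and 0.413) and prf1.6 (0.524 and 0.469) were higher in brain.

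With age, gzma and 2 of the 4 gzm3 rows rose in the control brain, while the perforin family as a whole did not separate the ages. Of the 19 rows that passed the filter in brain (13 granzymes and 6 perforins), 3 were called higher at 36 than at 12 months, where 1.4% of all 23032 genes were called higher, and 0 were called lower, where 0.573% of all genes were. All 3 were granzymes. The median log2 fold change of the 19 rows was 0.62, beside 0.01 over all genes, and 14 of the 19 were above 0. A row could pass the filter through its 36-month libraries alone, as gzma did with the low 12-month values given below. The median and the count above 0 hold such rows and were not taken without them. Because the family was proposed with results of these data in view, these p-values are a description of the members and not independent evidence.

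gzma had the largest change. In the 12-month controls it stood at 0.126, 0.04 and 0.124 CPM after 3 weeks and at 0.0596, 0.101 and 0.0326 after 8 weeks. In the 36-month controls it stood at 2.61, 0.48 and 3.35 CPM after 3 weeks and at 0.307, 0.684, 1.44 and 1.57 after 8 weeks. All 7 older controls lay above all 6 younger ones. This was a log2 fold change of 4.12 ± 0.87 (edgeR adjusted p = 0.0161). Leaving out replicate 1 or 2 of the 12-month controls of 3 weeks, or replicate 1 or 3 of those of 8 weeks, raised the edgeR adjusted p to between 0.0501 and 0.0559.

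GZMM (6 of 29), or gzm3.2, gave 0.849, 0.84 and 0.414 CPM and 0.924, 0.878 and 0.261 CPM in the 12-month controls of 3 and 8 weeks. The 36-month controls gave 5.73, 1.59 and 10.2 CPM and 1.72, 1.69, 3.07 and 3.95 CPM. The ages did not overlap, and replicate 3 of the older 3-week controls was the highest of all 24 brains. It rose by 2.47 ± 0.51 on the log2 scale (edgeR adjusted p = 0.0132), and the call remained when any 1 of the 24 libraries was left out.

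GZMM (3 of 29), or gzm3, stood between 0.12 and 0.473 CPM in the 6 younger controls. It stood at 1.9, 1.19 and 2.21 CPM and at 1.01, 0.805, 1.2 and 0.944 CPM in the older controls of 3 and 8 weeks, again without overlap. Its log2 fold change was 2.21 ± 0.55 (edgeR adjusted p = 0.0397). This call was the least firm, since it was lost in 12 of 24 fits that each left out 1 library: any of the 6 younger controls, replicate 1 or 3 of the older controls of 3 weeks, or any of the 4 older controls of 8 weeks (edgeR adjusted p of 0.0527 to 0.112).

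The remaining gzm3 rows had positive values that did not pass the test, with GZMM (1 of 29) at 1.64 ± 0.55 (edgeR adjusted p = 0.155) and GZMM (4 of 29) at 1.36 ± 0.51 (0.218). gzmk was at 1.8 ± 0.69 (0.233). As a sum, the gzm3 rows ran from 2.25 to 3.18 CPM in the younger controls and from 4.55 to 23.3 CPM in the older ones. The other GZMM copies overlapped between the ages, with 3.0 to 5.88 CPM in the younger and 3.2 to 9.48 CPM in the older controls.

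Of the perforins, PRF1 (1 of 8) came closest to the threshold in brain. It ran from 0.119 to 0.456 CPM in the younger controls, and was at 1.12, 0.303 and 1.47 CPM and at 0.276, 0.443, 0.916 and 0.804 CPM in the older controls of 3 and 8 weeks, so the ages overlapped. Its log2 fold change of 1.59 ± 0.43 had an edgeR adjusted p of 0.0596. It passed in 4 of 24 fits with 1 library left out (replicate 2 of the older controls of 3 weeks, replicate 1 of those of 8 weeks, or replicate 2 or 4 of the rotenone brains of 3 weeks, with 0.0272 to 0.0481). It passed as well without both replicates 3 and 4 of the rotenone brains of 3 weeks (edgeR adjusted p = 0.0445). DESeq2 also called it (0.0175), with 5 rows called in all, beside 985 of all 23032 genes. The fifth row was GZMM (1 of 29). Summed perforins were 4.2 to 5.7 CPM in the younger and 4.07 to 6.6 CPM in the older controls.

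**Figure D3:**
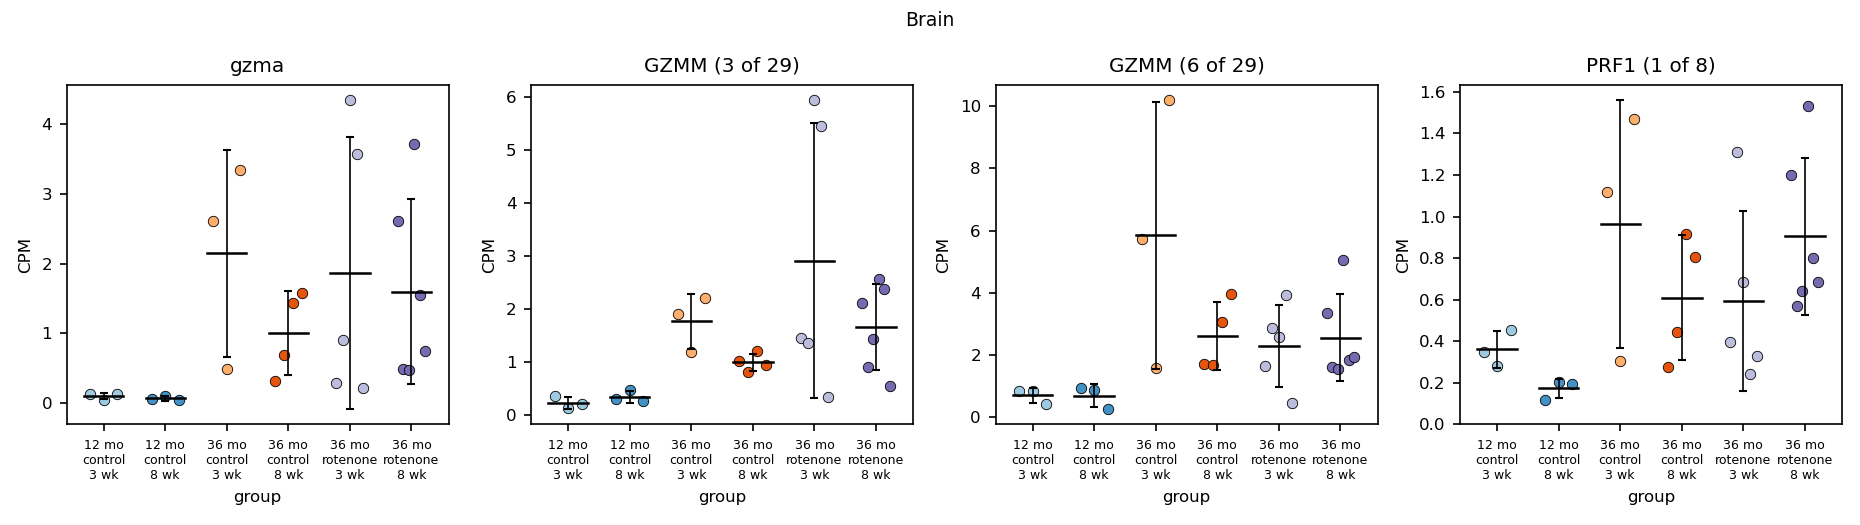
CPM of gzma, GZMM (3 of 29), GZMM (6 of 29) and PRF1 (1 of 8) in each brain library by age, treatment and time, with the mean and standard deviation of each group. The 12-month controls of the 3 granzyme rows lie below all 36-month controls, and both rotenone groups overlap the 36-month controls.

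Lymphocyte genes moved in the same comparison, where 1.4% of all genes were called higher and 0.573% lower. The T cell list had 9 of 23 tested genes higher at 36 months and 0 lower, with a median log2 fold change of 1.26, and among them were the interleukin 7 receptor il7r at 2.04 ± 0.32, the T cell kinase itk at 2.29 ± 0.38, the helper ligand cd40lg at 2.02 ± 0.34 and the coreceptor cd4 at 1.71 ± 0.34 (edgeR adjusted p of 0.00298 to 0.0116). cd8a, the coreceptor of cytotoxic T cells, was at 0.04 to 0.328 CPM in the younger and 0.282 to 5.22 CPM in the older controls. The kinase lck was at 0.8 to 1.47 CPM and 2.0 to 4.52 CPM. The summed T cell list still overlapped, with 189 to 275 CPM in the younger controls and up to 273 CPM in the older ones. A sum weighs the abundant genes of a list most, and in the younger controls lck and cd8a were a small part of it. Among the defining markers ifng1-1, an interferon gamma gene, was at 0 in all 3 younger controls of 3 weeks and in all 4 older controls of 8 weeks, and it was the only one of the 21 given as levels that was at 0 throughout a control group.

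The list of natural killer-like and cytotoxic lymphocyte genes had 5 of 29 tested genes higher and 0 lower, with a median of 1.66. Among them were the immune-type receptors nitr2a at 2.31 ± 0.39 and nitr2b at 2.34 ± 0.55, the death ligand faslg at 1.87 ± 0.37 and tbx21, a transcription factor of cytotoxic cells, at 2.06 ± 0.42. Its sum ran from 34.7 to 63.0 CPM in the younger and from 45.9 to 223 CPM in the older controls. Of the macrophage list 2 of 25 genes were higher (marco at 1.75 ± 0.37 and c1qa at 0.99 ± 0.22), and of the B cell list 0 of 7 and of the neutrophil list 0 of 11. Markers of other tissues also differed between the ages. With age in brain 11 of 11 liver markers were above 0 (median 1.91, 0 called), with overlapping sums of 155 to 438 CPM in the younger and up to 388 CPM in the older controls. Of 15 skin markers 13 were above 0 (median 0.72) and 1 was called, the pigment cell gene pmela at 0.88 ± 0.22, with sums of 252 to 314 and 223 to 1140 CPM. The part of cell number and of other tissues in the granzyme values was not tested.

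Other lists of the pathway also held called genes, beside 1.4% of all genes called higher and 0.573% called lower. Of 26 tested activating cytokines, receptors and transcription factors, 5 were higher in the older brain and 0 lower, including tbx21, stat4 at 1.03 ± 0.22 and runx3 at 1.55 ± 0.38. tbx21 and runx3 also stand on the natural killer-like list, so the counts of these lists are not separate. Of 21 genes for granule maturation and release 1 rose, the syntaxin-binding protein stxbp2 at 0.44 ± 0.09, and 1 fell, the vesicle fusion protein vamp8 at -0.45 ± 0.11. Of 17 other genes of the perforin and complement superfamily 1 rose, C7 (1 of 2) at 0.80 ± 0.21.

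Rotenone left no called member in brain. After 3 weeks edgeR called 0 of the 19 rows, with 0 at an unadjusted p under 0.05 and 0 by DESeq2, and 0.0% of all genes were called. The smallest p belonged to GZMM (6 of 29) at -1.18 ± 0.59, GZMM (28 of 29) at 1.38 ± 0.89, prf1.5 at 0.34 ± 0.24 and GZMM (3 of 29) at 0.90 ± 0.66, all with edgeR adjusted p of 0.399 or more. The 5 rotenone brains differed among themselves: the gzm3 sum was 5.5, 9.12, 25.2, 16.8 and 2.01 CPM, from below every 12-month control to above every other brain. Replicates 3 and 4 were the highest, and without them the value of GZMM (3 of 29) was -0.72. After 8 weeks edgeR again called 0 rows, beside 0.0304% of all genes, and DESeq2 called 0 rows. At an unadjusted p under 0.05 were 1 row and 1701 of all 23032 genes. That 1 row was GZMM (24 of 29) at -1.42 ± 0.65 (edgeR adjusted p = 0.636), followed by prf1.6 at 0.96 ± 0.64, GZMM (13 of 29) at -0.96 ± 0.73 and gzmk at 0.94 ± 0.75.

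No brain row was called by edgeR with the sampling time. In controls, 8 against 3 weeks gave 0 called rows by edgeR, 0 at an unadjusted p under 0.05 and 0 by DESeq2, beside 0.122% of all genes. The smallest p belonged to PRF1 (1 of 8) at -0.82 ± 0.42, prf1.5 at 0.31 ± 0.18, GZMM (6 of 29) at -0.56 ± 0.48 and prf1.6 at 0.68 ± 0.58. In rotenone brains edgeR called 0 members between the times, beside 8.96% of all genes. At an unadjusted p under 0.05 were 3 members and 7481 of all 23032 genes, and DESeq2 called 1 member and 4168 genes. That 1 was prf1.6, at 0.0724 to 0.572 CPM after 3 weeks and 0.2 to 2.98 CPM after 8 weeks, with a log2 fold change of 1.88 ± 0.64 (edgeR adjusted p = 0.0628). Its highest brain, replicate 4 of the rotenone brains of 8 weeks, also held the highest skin marker sum of all brains, 1610 CPM, and the highest skeletal muscle marker sum. In the same contrast 12 of 13 skeletal muscle markers were above 0 (median 2.53, 1 called, tpma at 0.83 ± 0.21), 10 of 11 liver markers (median 4.31, 0 called) and 10 of 15 skin markers (median 0.48, 0 called). The part of these tissues in the prf1.6 value was not tested. The differences of the rotenone effects and of the age effects between the times each had 0 called rows by edgeR. Of all genes edgeR called 0.0% and 0.00434%. Each difference had 1 row at an unadjusted p under 0.05, beside 1781 and 691 of all 23032 genes, and 0 rows by DESeq2.

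In skin, 8 weeks of rotenone went with higher levels of 2 granzyme copies and 1 perforin. Of the 30 rows that passed the filter (22 granzymes and 8 perforins) 3 were called higher than in 36-month controls of the same time, where 2.96% of all 22682 genes were called higher, and 0 were called lower, where 2.33% were. The median log2 fold change was 0.59, beside -0.01 over all genes, and 18 of the 30 were above 0. DESeq2 called the same number of rows, beside 2368 of all 22682 genes.

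PRF1 (1 of 8) stood at 3.3, 2.35, 1.51 and 3.39 CPM in the controls of 8 weeks and at 6.1, 10.4, 9.43, 7.66, 6.22 and 3.51 CPM in the rotenone skins of 8 weeks. The groups did not overlap, although the lowest rotenone library lay just above the highest control. The log2 fold change was 1.34 ± 0.35 (edgeR adjusted p = 0.0318). The controls of 3 weeks, at 5.74, 9.9 and 3.51 CPM, ran over nearly the same range as the rotenone skins. The call was lost without replicate 1, 2 or 3 of the controls of 8 weeks or without replicate 2 or 3 of the rotenone skins (edgeR adjusted p of 0.0631 to 0.106).

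GZMM (7 of 29) stood at 0.603, 0.297, 0.132 and 0.073 CPM in the controls of 8 weeks and at 0.778, 4.18, 2.11, 2.47, 2.8 and 0.236 CPM after rotenone. Replicate 6 of the rotenone skins lay among the controls, and the other 5 lay above all of them. Its rise on the log2 scale was 2.80 ± 0.65 (edgeR adjusted p = 0.0176), and the call was lost without replicate 2 of the controls (0.0595). The 12-month controls, at 0.655 to 1.44 CPM, also lay above these older controls.

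GZMM (12 of 29) was tight in the controls of 8 weeks, at 0.355, 0.397, 0.428 and 0.438 CPM, and scattered after rotenone, at 0.436, 2.21, 14.6, 1.07, 4.2 and 3.95 CPM. Replicate 3 was the highest of all skins, and replicate 1 lay within the controls. On the log2 scale the difference was 3.33 ± 0.89 (edgeR adjusted p = 0.0335). Without replicate 3 it was 2.47 with an edgeR adjusted p of 0.0862, and the call was also lost without any 1 of the 4 controls or without rotenone replicate 5 (0.0527 to 0.105). GZMM (8 of 29), the row with the next smallest p, had 1.75 ± 0.61 (0.0924).

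**Figure D4:**
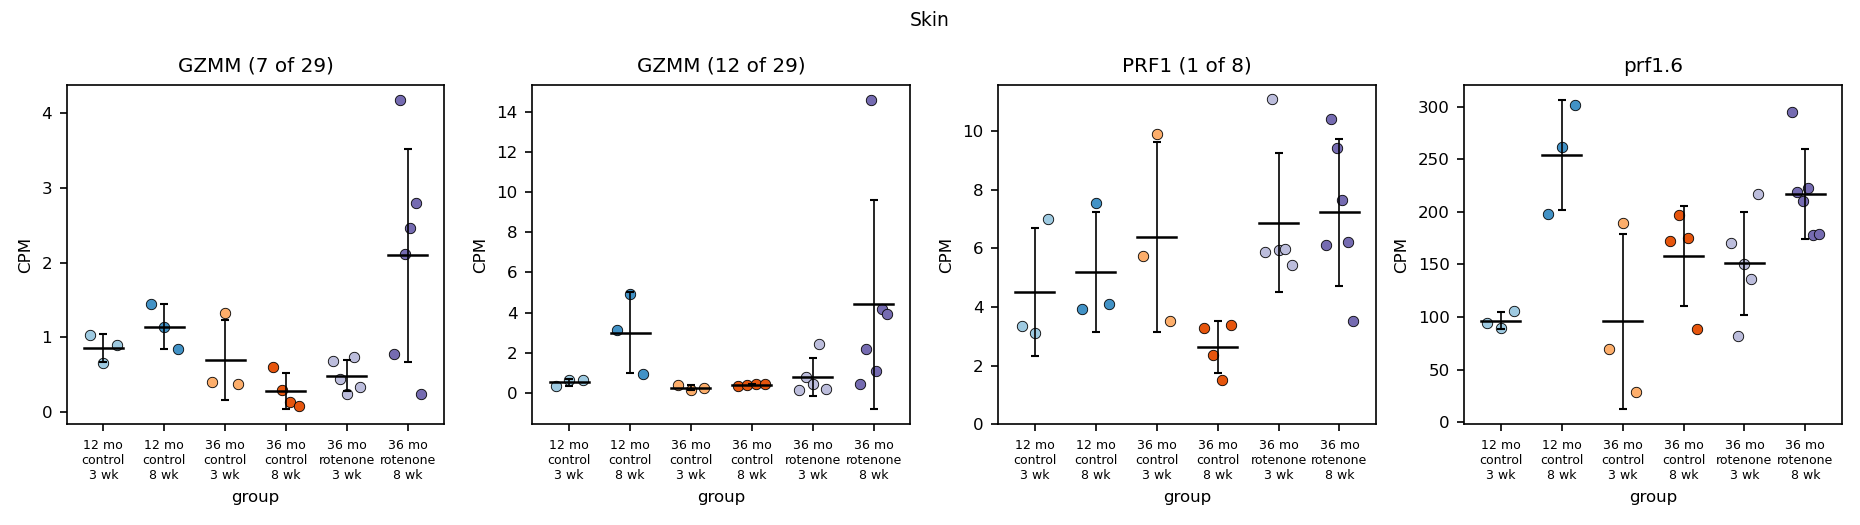
CPM of GZMM (7 of 29), GZMM (12 of 29), PRF1 (1 of 8) and prf1.6 in each skin library by age, treatment and time, with the mean and standard deviation of each group. The 36-month controls of 8 weeks are the lowest group for GZMM (7 of 29) and PRF1 (1 of 8), and the rotenone skins of 8 weeks reach 14.6 CPM for GZMM (12 of 29).

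The abundant members prf1.6 and GZMM (29 of 29) were not called. prf1.6 was between 88.5 and 197 CPM in the 4 controls and at 295, 219, 210, 223, 178 and 179 CPM after 8 weeks of rotenone, and GZMM (29 of 29) was at 9.26, 15.2, 17.3 and 4.78 CPM and at 12.4, 9.62, 20.7, 30.3, 19.1 and 29.7 CPM. Their ranges overlapped. Summed granzymes were 61.0, 46.8, 40.4 and 32.8 CPM in the controls and 62.4, 38.4, 64.0, 84.2, 65.8 and 82.0 CPM after rotenone.

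Among marker genes in the same skins, 1 of 23 T cell genes was higher after rotenone, the kinase lck at 0.83 ± 0.22 (edgeR adjusted p = 0.0321), with 4.64 to 6.57 CPM in controls and 8.73 to 13.5 CPM after rotenone. 1 of 31 natural killer-like and cytotoxic genes was higher, the transcription factor runx3 at 1.32 ± 0.30. Of all genes 2.96% were called higher. Above 0 were 17 of the 23 T cell genes (median 0.55) and 20 of the 31 natural killer-like genes (median 0.32). The transcription factor tbx21 was at -1.07 ± 0.43 (edgeR adjusted p = 0.143). The summed lists did not overlap: T cell genes ran from 143 to 217 CPM in controls and from 226 to 356 CPM after rotenone, and natural killer-like genes from 236 to 270 and from 452 to 589. Such sums weigh the abundant genes of a list most, so they do not show a rise of most genes on it. cd8a did overlap, at 0.625 to 5.85 and 1.77 to 6.32 CPM. Of 13 neutrophil and mast cell genes 3 were higher, CSF3R at 1.43 ± 0.40, npsn at 1.72 ± 0.49 and mpx at 2.27 ± 0.65. Skeletal muscle markers, none of which was called, summed to 8800 to 24700 CPM in controls and 3430 to 11300 after rotenone. The part of these cells and of muscle in the granzyme and perforin values was not tested.

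Other pathway genes in the rotenone skins of 8 weeks included the cytokine il15, which drives cytotoxic lymphocytes in mammals, higher at 0.86 ± 0.18. It and runx3, which also stands on the natural killer-like list, were the 2 called among 27 activating genes. Of 22 granule machinery genes 0 were called, of 20 targets and death genes 1 fell (parp1 at -1.07 ± 0.31), and of 14 other superfamily genes 0 were called. Over all genes 2.96% were called higher and 2.33% lower.

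After 3 weeks of rotenone edgeR called 0 of the 30 skin rows, beside 0.0% of all genes, and DESeq2 called 0 rows. At an unadjusted p under 0.05 were 1 row and 2281 of all 22682 genes. That 1 row was GZMM (8 of 29) at 1.66 ± 0.75 (edgeR adjusted p = 0.475), followed by prf1.6 at 0.71 ± 0.39, GZMM (6 of 29) at -1.21 ± 0.68 and GZMM (12 of 29) at 1.58 ± 0.98. prf1.6 was called without replicate 2 of the controls of 3 weeks (1.62, edgeR adjusted p = 0.0357). The difference between the rotenone effects of 8 and 3 weeks had 0 called rows by edgeR, beside 0.0% of all genes. It had 3 rows at an unadjusted p under 0.05, beside 2410 of all 22682 genes. DESeq2 called 1 row, and it also called genes outside the family. The 1 row was GZMM (7 of 29) at 3.27 ± 0.90 (edgeR adjusted p = 0.209).

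Between the rotenone skins themselves, 2 of 30 rows were higher after 8 than after 3 weeks, where 5.33% of all genes were higher, and 0 were lower, where 8.12% were. GZMM (7 of 29), at 0.677, 0.444, 0.244, 0.73 and 0.335 CPM after 3 weeks, was higher by 1.97 ± 0.57 (edgeR adjusted p = 0.0265). GZMM (12 of 29), at 0.143, 0.786, 0.452, 2.45 and 0.168 CPM after 3 weeks, was higher by 2.40 ± 0.77 (0.0422). The rotenone skins of 8 weeks enter this contrast and the one against controls, so the contrasts are not independent. Leaving out single libraries lost the first call in 5 of 24 fits (replicate 2, 3 or 5 of 3 weeks, 2 or 5 of 8 weeks) and the second in 8 (replicate 1 of the 12-month controls of 8 weeks, rotenone replicate 1, 2, 3 or 5 of 3 weeks and 3, 5 or 6 of 8 weeks), with edgeR adjusted p up to 0.154. With no filter on low counts GZMM (12 of 29) lost its call (0.0523), and GZMM (23 of 29), named after its values were seen, was called lower (-6.06, edgeR adjusted p = 0.0265), with 2.97 CPM in 1 rotenone skin of 3 weeks and at most 0.0365 CPM in the other rotenone skins. Skeletal muscle markers moved in the same contrast, with 3 of 14 called lower after 8 weeks and 0 of 14 above 0 (median -1.37), and their part in these values was not tested.

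Age called 1 row in skin, and it was 1 of the 3 called in brain. Skin and brain libraries share their numbers, so the age results of these tissues may not be independent. GZMM (6 of 29) was at 0.248, 0.946 and 0.249 CPM and at 0.411, 0.1 and 0.423 CPM in the 12-month controls of 3 and 8 weeks. It was at 2.25, 1.32 and 2.86 CPM and at 1.1, 1.45, 0.724 and 2.12 CPM in the 36-month controls. Only replicate 3 of the older controls of 8 weeks, at 0.724 CPM, fell within the range of the younger ones. The log2 fold change was 2.34 ± 0.57 (edgeR adjusted p = 0.0376), in a comparison where 1.15% of all genes were higher and 1.26% lower.

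That call was lost in 8 of 24 fits with 1 library left out (edgeR adjusted p of 0.0588 to 0.103), namely replicate 1 or 3 of the 12-month controls of 3 weeks, any of the 3 of 8 weeks, replicate 3 of the 36-month controls of 3 weeks and replicate 2 or 4 of those of 8 weeks. It was also lost without both libraries that stood apart in skin (2.57, edgeR adjusted p = 0.057) and with the replicate number as a block (2.23, 0.0701). Rows with the next smallest p were GZMM (8 of 29) at -1.51 ± 0.53 (0.11), gzma at 1.5 ± 0.57 (0.134) and GZMM (12 of 29) at -1.77 ± 0.71 (0.156). GZMM (8 of 29) was called without replicate 1 of the 36-month controls of 3 weeks (-2.30, edgeR adjusted p = 0.0252). Of the T cell list 0 of 23 genes and of the natural killer-like list 0 of 31 genes were called with age in skin. Of 15 skin markers 3 were called higher (anxa1b at 1.37 ± 0.25, dspa at 0.95 ± 0.24 and krt4 at 0.64 ± 0.17) and 14 were above 0. Skeletal muscle markers were above 0 in 14 of 14 (median 1.13) and liver markers in 0 of 11 (median -2.33), with 0 called of either. The part of tissue composition in the age values of skin was not tested. Whether the age effect on GZMM (6 of 29) differed between brain and skin was not tested. The age effects of 3 and 8 weeks differed for 0 skin rows by edgeR, beside 0.00441% of all genes, and for 0 rows by DESeq2. At an unadjusted p under 0.05 were 2 rows and 1602 of all 22682 genes.

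With sampling time in control skin edgeR called only the most abundant member of all, and most fits without 1 library lost that call. prf1.6 was called higher at 8 than at 3 weeks in control skin, 1 of 30 rows, where 1.11% of all genes were higher and 2.15% lower. In the 12-month controls it was at 94.6, 89.4 and 106 CPM after 3 weeks and at 198, 262 and 302 CPM after 8 weeks. In the 36-month controls it was at 69.9, 189 and 28.7 CPM after 3 weeks and between 88.5 and 197 CPM in the 4 of 8 weeks. The younger controls did not overlap between the times, and the older ones did. The log2 fold change was 1.12 ± 0.30 (edgeR adjusted p = 0.0426).

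The prf1.6 call with time was fragile, since it was lost in 17 of 24 fits with 1 library left out, whose values ran from 0.91 to 1.58. Without the 2 skin libraries that stood apart, replicate 2 of the 12-month and replicate 3 of the 36-month controls of 3 weeks, it was 0.85 (edgeR adjusted p = 0.146). The first of these held 14400 summed CPM of liver markers and the second 76800 of skeletal muscle markers. In the same comparison 7 of 11 liver markers were called lower at 8 weeks, and so were c9 at -4.87 ± 1.25 and c8b at -2.78 ± 0.75, complement components of the perforin superfamily that the liver makes. The part of liver or muscle tissue in the prf1.6 value was not tested beyond those fits. The rows with the next smallest p were GZMM (12 of 29) at 1.64 ± 0.72, PRF1 (1 of 8) at -0.47 ± 0.29 and GZMM (28 of 29) at 0.79 ± 0.60.

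In liver edgeR called 0 of the 19 rows that passed the filter (13 granzymes and 6 perforins) in any comparison. With age edgeR called 0.926% of all 20190 genes. At an unadjusted p under 0.05 were 6 rows and 3657 of all genes, and DESeq2 called 1 row and 1087 genes. The median of the 19 rows was 1.01 on the log2 scale, beside 0.12 over all genes. Liver libraries carry numbers shared with brain and skin, so the age results of the tissues may not be independent. GZMM (6 of 29) again had the smallest p. It was at 0.344 and 0.104 CPM and at 0.36, 0.0423 and 0.0464 CPM in the 12-month controls of 3 and 8 weeks, and at 0.934 and 1.89 CPM and at 0.276, 0.51 and 2.0 CPM in the 36-month controls. Only replicate 1 of the older controls of 8 weeks, at 0.276 CPM, lay within the younger range. The log2 fold change was 2.62 ± 0.76 (edgeR adjusted p = 0.1), and DESeq2 gave 2.64 (adjusted p = 0.0134). GZMM (17 of 29) was at 2.98 ± 1.02, GZMM (1 of 29) at 1.79 ± 0.69 and PRF1 (1 of 8) at 1.55 ± 0.61, with edgeR adjusted p of 0.151 to 0.197.

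A single liver library stood far above its group. Replicate 3 of the 36-month controls of 8 weeks held 17.2 CPM of granzymes, against 1.54 and 2.55 in the other 2, and 6.88 CPM of perforins, against 1.43 and 1.32. High granzyme sums also occurred in rotenone livers, up to 15.7 CPM after 3 weeks and 15.3 CPM after 8 weeks. Perforin sums there reached 5.19 and 3.36 CPM. Replicate 3 of those controls also held 189 summed CPM of T cell genes and 217 of natural killer-like genes. The highest values of the 6 rotenone livers of 8 weeks were 46.6 and 42.9. That control was also the library with 13400 CPM of intestine markers. The part of intestinal tissue in the granzyme and perforin levels of that control was not tested.

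Rotenone for 8 weeks gave 0 called liver rows by edgeR, beside 7.36% of all genes, and 0 by DESeq2. At an unadjusted p under 0.05 were 2 rows and 4625 of all 20190 genes. Both rows were highest in that library. prf1.8 was at 0, 0.034 and 1.97 CPM in the controls and at 0 to 0.0522 CPM after rotenone, with -4.19 ± 1.47 (edgeR adjusted p = 0.0934), and without replicate 3 its value was 0.39. Without replicate 1 of those controls it was -4.84 and called (0.0489). GZMM (7 of 29), at 0.023, 0 and 2.69 CPM in the controls and 0 to 0.223 CPM after rotenone, had -2.51 ± 1.09 (0.178). PRF1 (1 of 8) was at 0.115, 0.136 and 2.16 CPM in the controls and at 0.657, 0.641, 0.309, 0.693, 0.809 and 0.308 CPM after rotenone. Replicate 3 was the only control above the rotenone livers, and the main fit did not call the row. Without replicate 3, which had stood apart in earlier results, the 2 remaining controls lay below every rotenone liver. PRF1 (1 of 8) was then called at 2.12 (edgeR adjusted p = 0.0441). That library was left out with its values known, so this call is a description and not independent evidence. GZMM (1 of 29) at 1.56 ± 0.76 and GZMM (3 of 29) at 1.21 ± 0.70 had the next smallest p.

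The remaining liver comparisons also had 0 called members by edgeR and 0 by DESeq2. Rotenone for 3 weeks had 0 rows at an unadjusted p under 0.05, beside 0.0% of all genes called, and the smallest p belonged to GZMM (25 of 29) at 2.56 ± 1.45, GZMM (6 of 29) at -1.11 ± 0.90, GZMM (17 of 29) at -1.36 ± 1.15 and prf1.5 at 0.65 ± 0.56. Time in controls had 1, beside 4812 of all 20190 genes, and 7.35% of all genes were called by edgeR. The row was GZMM (13 of 29) at -2.68 ± 1.08 (edgeR adjusted p = 0.14). It was followed by GZMM (20 of 29) at -2.28 ± 1.12, whose value turned to 0.52 without replicate 2 of the 36-month controls of 3 weeks, prf1.6 at 1.66 ± 1.09 and GZMM (3 of 29) at -0.81 ± 0.62. Time in rotenone livers had 1, beside 4833 of all 20190 genes, and 9.25% of all genes were called by edgeR. The difference of rotenone effects had 0, with 0.0693% of all genes called, and the difference of age effects had 0, with 0.0%.

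**Figure D5:**
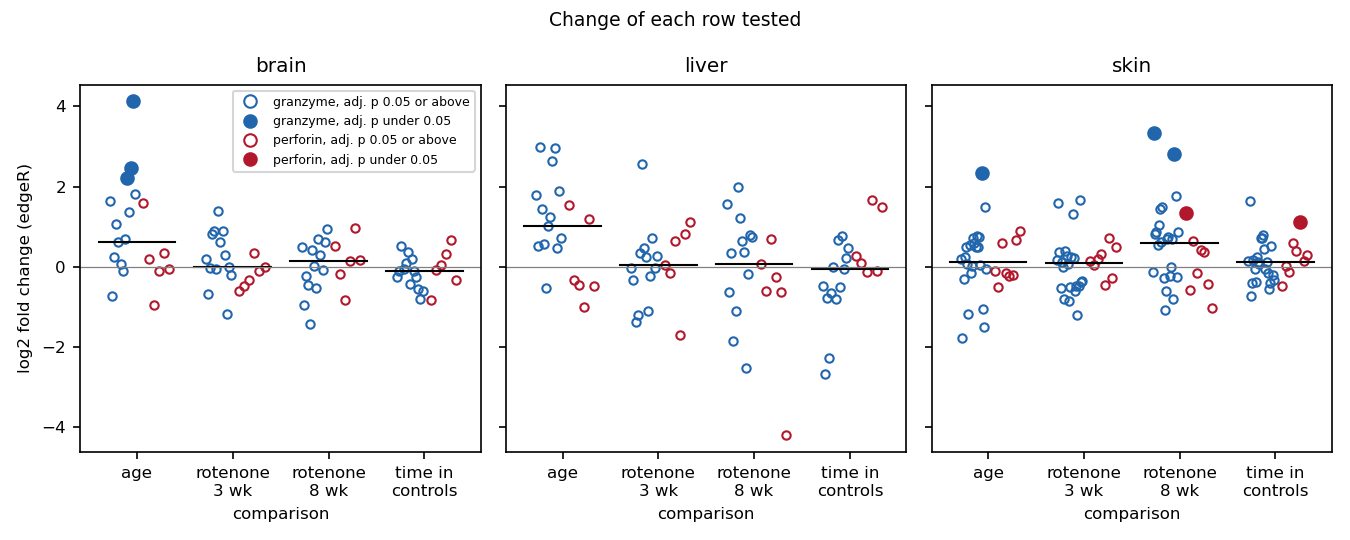
log2 fold change of each tested row with age, with rotenone at 3 and at 8 weeks, and with time in controls, in brain, liver and skin. Filled points are rows with an edgeR adjusted p under 0.05 (3 with age in brain, 3 with rotenone at 8 weeks in skin, 1 with age and 1 with time in skin), open points did not pass, and the line is the median of the tested rows, such as 0.62 for age in brain and 1.01 for age in liver.

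Within a group, members varied together to different degrees. After group means were removed from log2(CPM + 0.1), summed gzm3 rows and summed gzma and gzmk rows had a Pearson r of 0.91 and a Spearman rho of 0.88 over the 24 brains, 0.87 and 0.81 over the 20 livers and 0.55 and 0.54 over the 24 skins. Without the 2 libraries farthest from the median of the gzm3 rows, r was 0.89, 0.80 and 0.45. The gzm3 rows and the other GZMM copies had an r of -0.17 in brain, 0.87 in liver and 0.11 in skin. With PRF1 (1 of 8) the r of the gzm3 rows was 0.59 in brain, 0.78 in liver and 0.23 in skin. The points share library depth and whatever cells each piece of tissue held, so these values describe the libraries.

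The genes most alike to the summed granzymes, ranked by Pearson r of log2 CPM after group means were removed, were the T cell kinases zap70 (0.94), itk (0.93) and lck (0.91), SON (0.91) and ftr79 (0.91) over the 20 livers, out of 12143 genes ranked. Over the 24 brains they were FKBPL (0.86), ercc1 (0.85), arhgdig (0.84), TRBC2 (0.84), named after a T cell receptor constant region, and POLR2K (0.83), out of 15656 genes. Over the 24 skins they were lrrc33 (0.81), CLEC19A (0.76), cyth4b (0.73), ncf4 (0.73), a subunit of the phagocyte oxidase, and DLGAP2 (3 of 3) (0.73), out of 14758 genes. So the 3 leading genes in liver were T cell genes, and those in skin were not on the T cell list. The liver ranking included the library with 17.2 CPM of granzymes. The skin ranking included the library with 101 CPM of GZMM (29 of 29). No ranking without these libraries is given here.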

How the data were processed

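RNA-seq of brain, liver and skin was analysed in 68 libraries. Per the labels, a phenol-based reagent (QIAzol) gave total RNA, from which Illumina's TruSeq kit made libraries. Tables deposited by the authors hold raw counts per gene, which were used for every test, and RPKM (reads scaled to gene length and depth), used here only to compare levels between genes. The submitters' processing notes name CASAVA 1.8.2. The sources used here do not give an aligner, a counting program or a build. Groups came from the labels, of which 1 field gives the controls as untreated and another as DMSO. The labels do not state that each library is a separate fish, and a p-value then speaks only for the spread of these libraries, which may be technical. In 40 brain, 29 liver and 40 skin pairs of replicates a chi-square test put the counts well beyond sampling noise (at least 14.9 a gene), so none was counted as a copy.

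Each tissue was fitted with its 6 groups in edgeR 4.0.16 (R 4.3.3, limma 3.58.1). filterByExpr (minimum count 10, minimum total 15) chose the genes, TMM scaled the libraries, and the robust quasi-likelihood F test was used two-sided, with p adjusted by Benjamini-Hochberg and a threshold of 0.05. The filter used the groups, so a row could pass through those where it was high. A standard error is the size of the log2 fold change over the root of its F statistic. Contrasts were rotenone against 36-month controls at each time, 36 against 12 months and 8 against 3 weeks in controls, 8 against 3 weeks with rotenone, and differences of effects. Contrasts of rotenone and of age share the 36-month controls. Tissues were compared in a fit of all 68 libraries, without DESeq2 and without leaving out single libraries. Alternatives were RLE size factors, no filter, DESeq2 1.42.0, the replicate number as a block, leaving out each library, and leaving out 5 libraries that stood apart in earlier results: replicate 3 of the 36-month controls of 8 weeks in liver, replicate 2 of the 12-month and replicate 3 of the 36-month controls of 3 weeks in skin, and replicates 3 and 4 of the rotenone brains of 3 weeks. The edgeR fit was tested on simulated data.

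The members and the marker and pathway lists were chosen with earlier results of these data known. Members are named where called within a tissue, among the 6 highest mean RPKM of a tissue, or among the 4 smallest p of a main contrast. Tissue differences were named after their values were seen. List genes are named where called, at most 4 a list. Likeness used genes of at least 1 CPM and a prior count of 2. The result of the list of granzyme targets and death genes for age in brain is not reported here.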

Additional observations from a re-analysis of the deposited data

Results flagged for a closer look

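Among 76 sets of 4 to 10 libraries examined, 9 held a library far from the rest by Dixon's criterion. Chance flags about 1 in 20 sets if they are independent and normally distributed. These sets share libraries and CPM need not be normally distributed, so that rate may not hold here. In brain, GZMM (20 of 29) was at 4.77 CPM in replicate 4 of the rotenone brains of 3 weeks, against 0.411 to 1.48 in the others. Summed perforins were at 6.6 CPM in replicate 1 of the 36-month controls of 8 weeks (others 4.72 to 4.99) and at 8.78 CPM in replicate 4 of the rotenone brains of 8 weeks (others 5.53 to 6.47). In liver, gzmk was at 1.86 CPM in replicate 4 of the rotenone livers of 8 weeks (others 0.45 to 0.965).

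The other 5 were in skin, all in rotenone groups. Sets of fewer than 4 libraries were not examined. Among skin controls only those of 36 months and 8 weeks (n = 4) were large enough, and among liver controls none were. Where the flags fell therefore depends on group size. After 3 weeks PRF1 (1 of 8) was at 11.1 CPM in replicate 2 (others 5.43 to 5.99), and replicate 4 held both GZMM (12 of 29) at 2.45 CPM (others 0.143 to 0.786) and GZMM (29 of 29) at 101 CPM (others 4.15 to 16.9). After 8 weeks GZMM (12 of 29) was at 14.6 CPM in replicate 3 (others 0.436 to 4.2) and prf1.5 at 16.0 CPM in replicate 4 (others 3.11 to 7.12).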

How the results depend on the processing

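The following counts leave aside the fits that each left out 1 library. They cover only members called in a contrast of the main fit or among the 4 smallest p of a main contrast. Of these results under another setting, 235 kept direction and side of the threshold, 9 lost a call, 3 gained one and 2 reversed. Outside that set further calls were gained, among them GZMM (1 of 29) with age in brain (DESeq2 adjusted p = 0.0446). Without the libraries that stood apart, PRF1 (1 of 8) with rotenone at 8 weeks in liver was another (edgeR adjusted p = 0.0441). Among the 235 are rows without a call in the main fit, which had none to lose. With 1 library left out further calls were lost, that of prf1.6 with time in control skin in 17 of 24 fits. Without the libraries that stood apart, GZMM (3 of 29) with rotenone at 3 weeks in brain was -0.72 and prf1.8 with rotenone at 8 weeks in liver was 0.39. With 1 library left out, prf1.8 ran from -4.84 to 0.39 and GZMM (20 of 29) with time in control livers from -3.22 to 0.52. Counts of called members changed to 5 (brain, age), 1 (brain, time in rotenone), 1 (liver, age) and 1 (skin, rotenone difference) with DESeq2. Without the libraries that stood apart they changed to 1 (liver, rotenone at 8 weeks), 0 (skin, age) and 0 (skin, time in controls). In that setting PRF1 (1 of 8) joined the rows called with age in brain (1.58, edgeR adjusted p = 0.0445). With no filter on low counts the counts changed to 0 (skin, time in controls), while in skin with time in rotenone the count stayed at 2 but 1 call was replaced. With 1 library left out they ran from 1 to 4 (brain, age), 0 to 1 (brain, time in rotenone), 0 to 1 (liver, rotenone at 8 weeks), 0 to 1 (skin, rotenone at 3 weeks), 0 to 3 (skin, rotenone at 8 weeks), 0 to 2 (skin, age), 0 to 1 (skin, time in controls) and 0 to 2 (skin, time in rotenone). By effective library size, mean sums were 10.8 CPM (granzymes, liver), 3.61 (perforins, brain) and 4.66 (perforins, liver). Replicate numbers did not pair the libraries of a tissue, since in no contrast with 3 or more pairs was every correlation of deviations above 0.1. With the replicate block the counts became 0 (skin, age), 0 (skin, time in controls) and 1 (skin, time in rotenone), 2 in brain with age and 2 in skin with rotenone at 8 weeks, where GZMM (3 of 29) had an adjusted p of 0.0638 and GZMM (12 of 29) of 0.0883. The library number shared between tissues correlated best with its own in 15 of 20 (brain and liver), 22 of 24 (skin and brain) and 15 of 20 cases (skin and liver), and as a block it left 16, 29 and 25 rows called. Groups of 2 to 6 libraries and levels near 1 CPM limit what could be detected, most of all in liver.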
